A study of Homo sapiens with 4 samples.

Results

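A set of 9 genes of transforming growth factor beta (TGF-beta) signalling was followed in ribosome footprints and matched RNA fragments from SW480, a long-established line of human colorectal adenocarcinoma cells. They were taken by name from the gene column of the count files: the ligand genes TGFB1 and BMP4, the receptor genes TGFBR1 and TGFBR2, the SMAD genes SMAD2, SMAD3, SMAD4 and SMAD7, and the matrix gene TGFBI. All 9 were listed among the 19192 genes. Of these, 8 had a mean count of at least 50 over both RNA libraries and 6 over both footprint libraries, and are called measured. SMAD4 was measured in neither assay, and TGFBR2 and SMAD7 not in footprints.

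Both groups were SW480 derivatives that overexpress LIN28B per the labels; the second also carried a homozygous knockout of IMP1, the protein encoded by IGF2BP1. Each group gave 1 RNA library and 1 footprint library from 3 pooled culture plates, and whether a line was 1 clone is not given in the sources used here. LIN28B is an RNA-binding protein that blocks maturation of let-7 microRNAs, and IMP1 binds mRNAs and affects their stability and translation. With 1 library per line and assay there is no replicate check and no p-value, and every 95% interval covers counting error only. Total counts were 5429224 and 6813372 in RNA and 2732760 and 3260262 in footprints, for the OE-labelled (overexpressing) and the KO-labelled (overexpressing with knockout) line. The libraries went against the knockout label: IGF2BP1 had a log2 ratio, KO-labelled over OE-labelled, of 0.79 in RNA (840 and 1974 counts) and 1.03 in footprints (332 and 821 counts). LIN28B stood at -2.43 in RNA (1205 and 303 counts) and -2.31 in footprints (190 and 46 counts). Every direction below is thus one between libraries that bear these labels and that differed in LIN28B as well.

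Epithelial identity was checked against 10 markers. In both RNA libraries 8 of them had at least 50 counts, among them EPCAM (1686 and 1648), while KRT20 and CDX1 had 0 in all 4 libraries. Their summed RNA level was 10659 CPM (counts scaled to a library of 1000000) in the OE-labelled and 5166 in the KO-labelled library, most of it from KRT8 (18310 and 10719 counts) and KRT18 (30815 and 19541). CDH1 went the other way, with 243 and 614 RNA counts and 167 and 436 footprints. The 8 fibroblast and smooth muscle markers summed to 3.26 and 9.44 CPM in RNA and to 0 and 18.6 in footprints; COL1A2, DCN and LUM had 0 counts in every library, and COL1A1 had 2 and 55 RNA counts and 0 and 57 footprints. The 5 haematopoietic markers summed to 11.5 and 23.8 CPM in RNA and 15.5 and 32.0 in footprints, most of it CD68, with PTPRC at 0 throughout. Of the 4 endothelial markers (306 and 192 CPM in RNA, 4.79 and 3.96 in footprints), KDR held 1571 and 1312 RNA counts against 3 footprints in each line. The part of these markers in the differences below was not tested.

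TGF-beta is secreted in a latent complex and, once released, binds a type II receptor, which recruits and phosphorylates a type I receptor. The type I receptor phosphorylates SMAD2 and SMAD3, which join SMAD4 and regulate genes in the nucleus. SMAD7 is induced by the pathway and inhibits it at the receptor, and bone morphogenetic proteins such as BMP4 use a parallel branch through SMAD1, SMAD5 and SMAD9 with the same SMAD4. TGF-beta restrains the growth of normal colonic epithelium, and colorectal tumours often lose a receptor or SMAD4. TGFBI is a secreted matrix protein, named for its induction by TGF-beta, that is bound by integrins on cells.

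TGFBI was the member that differed most. It had 1302 RNA counts (249.7 CPM, scaled by TMM as all CPM here) in the OE-labelled library and 301 (42.4 CPM) in the KO-labelled library. Its footprints numbered 1100 (406 CPM) and 223 (67.9 CPM). Both assays were thus far higher in the OE-labelled line. The log2 ratio was -2.56 in RNA (95% interval -2.74 to -2.38), a level 5.88-fold lower, and -2.58 in footprints (-2.79 to -2.37), 5.96-fold lower. From the lowest ratio upward TGFBI was gene 14 of 9855 measured in RNA and 13 of 7323 in footprints. Since material was bulk, fewer expressing cells and less RNA per cell cannot be told apart. At least 1.5-fold lower in RNA, the threshold used for all counts here, was 1 of the 8 measured members, TGFBI, against 10.5% of all measured genes, and 0 were 1.5-fold higher against 10.5%.

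**Figure D1:**
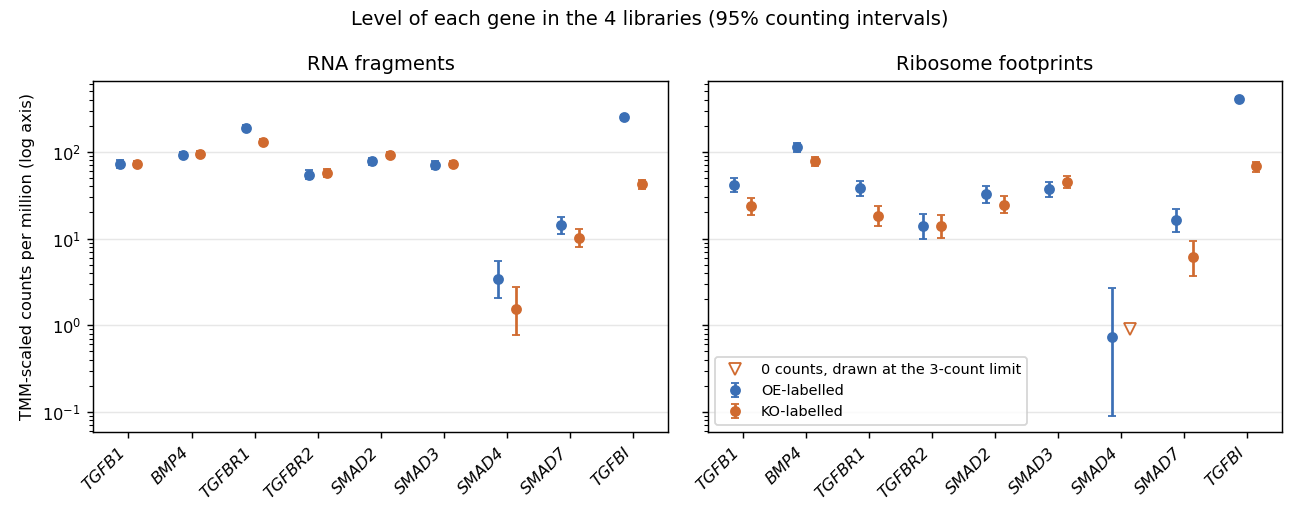
TMM-scaled CPM (log axis) of the 9 genes in the RNA libraries (left) and footprint libraries (right), with 95% counting intervals; values are not per length, so only the 2 lines are to be compared within a gene. TGFBI is at 249.7 and 42.4 CPM in RNA, and SMAD4 lies lowest in each panel, its 0 footprints drawn as an open triangle at the limit of 3 counts.

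The TGFBI difference was of like size in footprints and RNA. Translational efficiency, the footprint ratio over the RNA ratio, had a log2 value of -0.02 (-0.30 to 0.25), near the median of -0.00 over 7260 genes measured in both assays. Within the OE-labelled line TGFBI had 84.5 footprint counts per 100 RNA counts, and within the KO-labelled line 74.1. Its log2 ratio of footprints over RNA stood 0.48 above the median gene in the first (0.37 to 0.60) and 0.44 above it in the second (0.19 to 0.70), intervals that overlap.

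TGFBI (ENST00000442011, chromosome 5, 136028895 to 136063817, plus strand, GRCh38, 17 exons) lies in a stretch of 5q31 where the other genes did not share its difference. Of 71 other measured genes within 5 Mb, 0 had a lower RNA ratio; they ran from -0.94 (CDKN2AIPNL) to 1.56 (CSF2) around a median of -0.01. The median of its 40 nearest measured genes was -0.06 in RNA and -0.08 in footprints. SMAD5, a SMAD of the BMP branch whose start lies 104 kb further along, had 1101 and 1661 RNA counts (log2 ratio 0.15, 0.04 to 0.26) and 370 and 515 footprints (0.20, 0.01 to 0.40). H2AFY, on the other side, stood at 0.08 in RNA (-0.03 to 0.20). Of the 20 neighbours listed, 18 were in the count files. SEC24A (246 and 656 RNA counts, log2 ratio 0.97) and TXNDC15 (0.87) were higher and CAMLG (414 and 305 counts, -0.88) lower in RNA. Their footprint ratios were -0.14, -0.39 and 0.03. CXCL14, between H2AFY and TGFBI and too sparse to be measured, had 11 and 0 RNA counts.

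**Figure D2:**
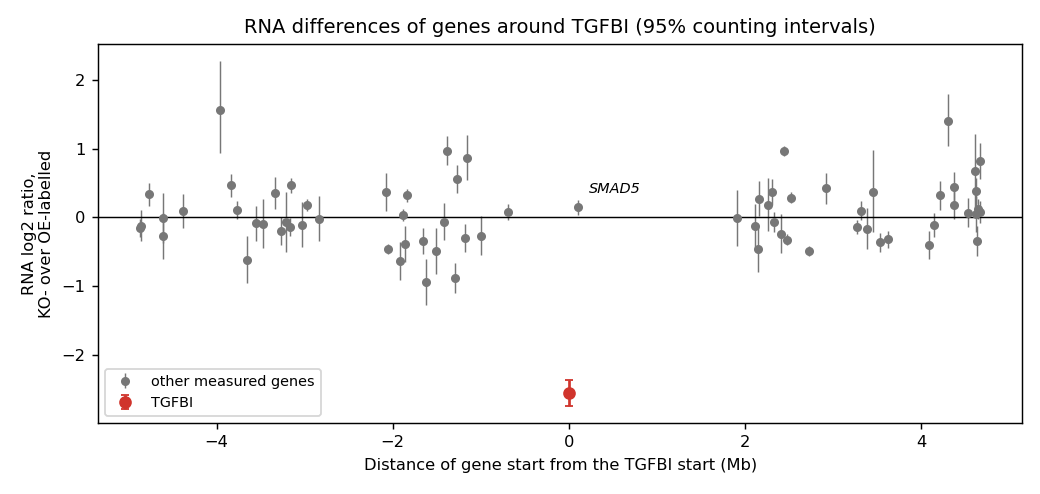
RNA log2 ratio (KO-labelled over OE-labelled) with 95% counting intervals for each measured gene within 5 Mb of the TGFBI start, against distance in Mb. The 71 other genes lie between -0.94 and 1.56, and TGFBI stands alone at -2.56.

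The bases just before the start of the listed TGFBI transcript are shown, from the RefSeq promoter table (GRCh38.p14, chr5:136028738-136028894, plus strand, 157 bases). The part of transcription in the TGFBI difference was not tested. Capitals mark AGAC or GTCT, the short element that SMAD proteins bind, read on both strands.

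TGFBI upstream: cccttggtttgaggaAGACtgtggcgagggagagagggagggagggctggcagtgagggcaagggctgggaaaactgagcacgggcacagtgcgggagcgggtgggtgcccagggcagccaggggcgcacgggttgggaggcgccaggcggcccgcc

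AGAC occurred 1 time and GTCT 0 times in this window. At least 1 of these motifs is present in 63.4% of 35116 promoter entries, each cut to its first 157 bases. Those bases need not end at a transcript start, as the TGFBI window does. The match is common and is given as a description only.

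The genes most like TGFBI were sought over the RNA and footprint log2 ratios of the 4 libraries, by Euclidean distance among 7259 other genes measured in both assays. The 5 nearest were SAA2 (distance 0.25; RNA -2.42, footprints -2.36), LIN28B (0.29), EPAS1 (0.47; RNA -3.02, footprints -2.51), S100A3 (0.54; RNA -2.05, footprints -2.77) and LPCAT2 (0.67; RNA -1.94, footprints -2.30). SAA2 is uncertain, because SAA1 is a near-identical copy that could share its reads. LIN28B is the gene the labels give as overexpressed in both lines.

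The ligand gene TGFB1 differed in footprints and not in RNA. It encodes the founding member of the TGF-beta ligand family. Its RNA counts were 378 and 517, or 72.5 and 72.9 CPM (log2 ratio 0.01, -0.19 to 0.20). Its footprints were 114 and 78, or 42.0 and 23.7 CPM (-0.82, -1.26 to -0.40), 1.77-fold lower in the KO-labelled library. RNA did not differ beyond counting error, while the footprint intervals did not meet. Translational efficiency stood at -0.83 (-1.28 to -0.37), and 30.2 footprint counts per 100 RNA counts in the OE-labelled line compared with 15.1 in the KO-labelled line.

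BMP4, a ligand of the parallel BMP branch, showed a smaller difference of the same kind. It had 482 and 672 RNA counts, or 92.5 and 94.7 CPM (log2 ratio 0.03, -0.14 to 0.21). Its footprints were 305 and 255, or 112 and 77.6 CPM (-0.53, -0.78 to -0.29), short of 1.5-fold. Efficiency stood at -0.57 (-0.86 to -0.28). Genes around BMP4 on chromosome 14 were higher in the KO-labelled line: its 40 nearest measured genes had medians of 0.33 in both RNA and footprints. With these subtracted, BMP4 stood at -0.30 in RNA and -0.86 in footprints.

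TGFBR1, which encodes the type I receptor, was lower in both assays and more so in footprints. It had 993 and 935 RNA counts, or 190.5 and 132 CPM (log2 ratio -0.53, -0.66 to -0.40), and 103 and 60 footprints, or 37.98 and 18.3 CPM (-1.05, -1.54 to -0.58). The OE-labelled library was the higher one in each assay. That is 1.45-fold lower in RNA and 2.07-fold lower in footprints, with an efficiency of -0.52 (-0.99 to -0.04). TGFBR2, which encodes the type II receptor, had 284 and 404 RNA counts, or 54.5 and 56.9 CPM (0.06, -0.16 to 0.29). Its 38 and 46 footprints gave a log2 ratio of -0.00 (-0.65 to 0.66), an interval wide enough to hold a 1.5-fold difference either way.

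Since the lines differed in LIN28B, matches to the let-7 seed were looked for in the members' 3' untranslated regions. The 8 let-7 family members in the RefSeq table (GRCh38.p14) share 1 seed (bases 2 to 8, in capitals), as in the example given first. Its reverse complement CTACCTC was searched on the transcript strand of the listed GENCODE 29 transcripts, and 3 matches were found, shown 5′ to 3′ in 27 bases with the match in capitals.

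hsa-let-7a-5p: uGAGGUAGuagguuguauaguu

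TGFBR1 (chr9:99149365-99149391, plus strand): gggaggtcaattgttCTACCTCactga

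SMAD2, first match (chr18:47838044-47838070, minus strand): acccagttggtttctCTACCTCttaaa

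SMAD2, second match (chr18:47821149-47821175, minus strand): ttcaagaagaaaactCTACCTCaagaa

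The TGFBR1 match begins at base 75 of a 3' region of 4887 nt and, like the second SMAD2 match, is followed by an A. The SMAD2 matches begin at bases 3772 and 20667 of a 3' region listed at 32870 nt, and the other 7 members hold none. Of 9719 genes measured in RNA with a 3' region, 9.44% hold CTACCTC, with a median 3' length of 2786 nt against 1037 nt for all. Their median RNA log2 ratio was 0.05, beside 0.01 for all these genes. Among the 7149 measured in both assays, the footprint median was 0.06 for genes with a match and 0.02 for all. A match is a description of the sequence and no sign of binding.

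**Figure D3:**
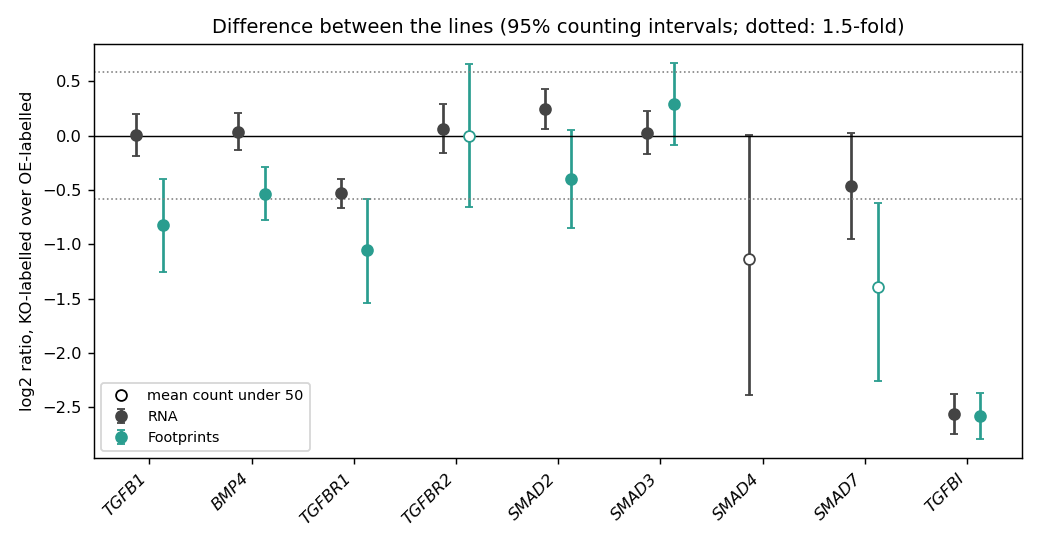
log2 ratio (KO-labelled over OE-labelled) of each gene in RNA (grey) and footprints (green), with 95% counting intervals; open circles have a mean count under 50, dotted lines mark 1.5-fold, and SMAD4 footprints (2 and 0 counts) are left out. TGFBI is at -2.56 and -2.58. The TGFB1, BMP4, TGFBR1, SMAD2 and SMAD7 footprint points lie below their RNA points, with overlapping intervals for TGFBR1 and SMAD7. The SMAD3 footprint point lies above its RNA point.

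In footprints, 3 of the 6 measured members were at least 1.5-fold lower (TGFBI, TGFB1 and TGFBR1), against 14.1% of all measured genes, and 0 were higher against 15.0%. The median of the 6 was -0.68, beside 0.02 over all measured genes; in RNA the median of the 8 was 0.02, beside 0.01. Efficiency was at least 1.5-fold lower for 2 of 6 (TGFB1 and SMAD2), against 12.9%, and higher for 0, against 13.4%.

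Among the SMADs that carry the receptor signal, SMAD2 and SMAD3 differed by less than 1.5-fold in each assay, while SMAD2 passed 1.5-fold in efficiency. SMAD2 had 407 and 656 RNA counts, or 78.1 and 92.5 CPM (log2 ratio 0.24, 0.06 to 0.43), and 88 and 81 footprints, or 32.4 and 24.7 CPM (-0.40, -0.85 to 0.06). Its efficiency stood at -0.64 (-1.11 to -0.17), 1.56-fold lower. SMAD3 had 371 and 515 RNA counts, or 71.2 and 72.6 CPM (0.03, -0.17 to 0.22), and 100 and 148 footprints, or 36.9 and 45.1 CPM (0.29, -0.09 to 0.67). SMAD3 was the one measured member whose footprint ratio lay above 0, and its interval includes 0.

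SMAD4, the shared partner of both SMAD branches, had few counts in every library. SW480 is known as a line deficient in SMAD4. The gene had 18 RNA counts (3.45 CPM) in the OE-labelled and 11 (1.55 CPM) in the KO-labelled library (log2 ratio -1.13, -2.38 to 0.01), and 2 and 0 footprints. A count of 0 allows up to 0.913 CPM there, taken as 3 counts. SMAD4 made up 2.26% of the RNA counts of SMAD2, SMAD3 and SMAD4 together in the OE-labelled line (18 of 796, exact 95% interval 1.35% to 3.55%) and 0.931% in the KO-labelled line (11 of 1182, 0.465% to 1.66%). In footprints the shares were 2 of 190 (1.05%, 0.128% to 3.75%) and 0 of 229, with an exact upper limit of 1.60% (1.31% if a count of 0 is taken to allow 3 counts). No fold is given for these footprints, as both are under the limit of 3 counts.

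SMAD4 lies on chromosome 18 (51030213 to 51085039, plus strand) among genes with many and with few counts. The next listed gene after it, MEX3C, whose start lies 144 kb away, had 350 and 455 RNA counts (67.1 and 64.1 CPM). On the other side ELAC1, 62.2 kb before SMAD4, had 2 and 6 RNA counts, MRO 5 and 9, and MAPK4 0 and 2. Each had at most 4 footprints in any library. RP11-729L2.2, a separately listed gene that also starts 62.2 kb before SMAD4, had 0 and 1 RNA counts and 0 footprints in each line. How reads shared by overlapping genes were counted is not given, and whether any were lost to SMAD4 was not tested. SKA1, 655 kb before SMAD4, had 114 and 163. Beyond MEX3C, DCC had 0 counts in all 4 libraries, MBD2 had 190 and 164 RNA counts, and POLI had 4 and 18. These are some of the nearest listed genes on each side, named after their values were seen. Whether the genes in between are lost or silent was not tested.

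SMAD7, the inhibitory SMAD, was sparse. Its RNA counts were 74 and 73, or 14.2 and 10.3 CPM (log2 ratio -0.46, -0.95 to 0.02), and its footprints 44 and 20, or 16.2 and 6.09 CPM (-1.39, -2.25 to -0.62). RNA did not differ beyond counting error, while footprints were 2.63-fold lower with a mean count of 32, under the minimum for a call. Efficiency stood at -0.93 (-1.82 to -0.04).

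Levels of different genes were compared per kilobase of listed transcript, in CPM per kb. In OE-labelled RNA the order was TGFBI (89.1), BMP4 (51.8), TGFBR1 (29.2), TGFB1 (26.2), TGFBR2 (11.8), SMAD3 (11.4), SMAD7 (3.21), SMAD2 (2.26) and SMAD4 (0.394). Counting intervals of neighbours in this order overlapped for TGFBR1 and TGFB1 and for TGFBR2 and SMAD3. In KO-labelled RNA, TGFBI stood at the fourth place (15.1), with an interval overlapping that of TGFBR2 (12.3), and BMP4 (53.1) led. In OE-labelled footprints TGFBI led (144.6), ahead of BMP4 (63.0) and TGFB1 (15.2), while in KO-labelled footprints BMP4 (43.5) led, followed by TGFBI (24.2). The order depends on the length used: 23 of 36 places moved per kilobase of coding sequence, since SMAD2, for one, is listed with 34526 nt for 1401 coding bases. Per coding kilobase TGFBR1 (126) and TGFBI (122) headed OE-labelled RNA with overlapping intervals, SMAD3 (55.8) and SMAD2 (55.7) stood side by side, and TGFBI was at the seventh place in KO-labelled RNA (20.7). SMAD4 was last in every library by both lengths.

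Within a line, most members carried fewer footprints per RNA count than the median gene. Relative to that gene, the log2 ratio of footprints over RNA in the OE-labelled line was -2.54 for TGFBR1 (-2.85 to -2.25), -1.48 for SMAD2 (-1.83 to -1.15), -1.16 for SMAD3 (-1.50 to -0.84) and -0.997 for TGFB1 (-1.32 to -0.70). BMP4 stood at 0.07 (-0.14 to 0.28). In the KO-labelled line these were -3.07 for TGFBR1 (-3.49 to -2.71), -2.13 for SMAD2 (-2.49 to -1.81), -0.92 for SMAD3 (-1.20 to -0.66), -1.84 for TGFB1 (-2.21 to -1.51) and -0.52 for BMP4 (-0.74 to -0.31). In each line, 4 of 6 measured members were at least 1.5-fold below the median gene, the same 4 genes named first, against 28.7% of all measured genes in the OE-labelled and 29.7% in the KO-labelled line. None was 1.5-fold above it, against 24.1% and 24.9%. TGFBR1 lay at percentile 1.40 of all measured genes in the first line and 0.771 in the second.

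**Figure D4:**
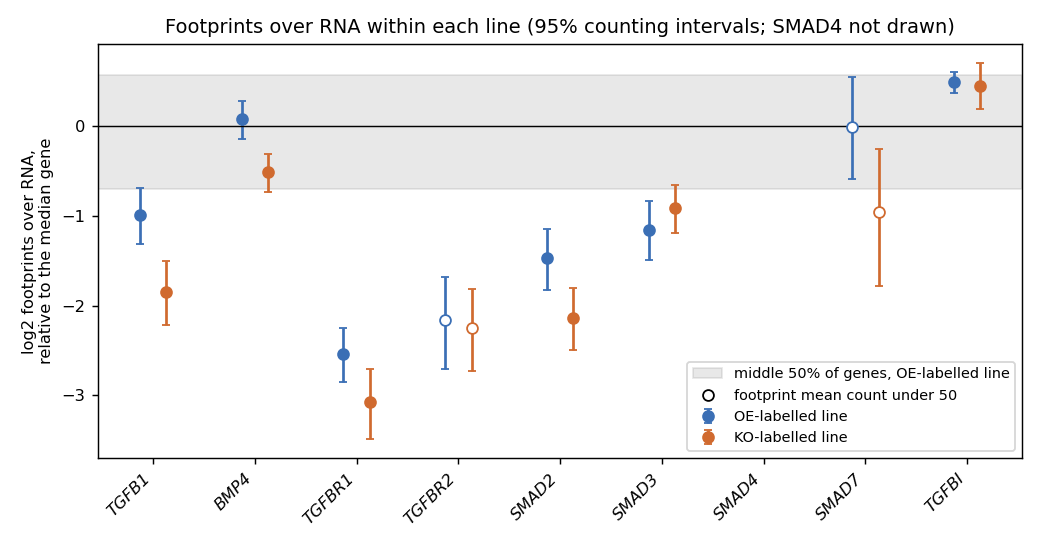
log2 ratio of footprints over RNA in each line relative to the median gene of that line, with 95% counting intervals; the grey band is the middle 50% of measured genes in the OE-labelled line and open circles have a footprint mean count under 50. TGFBI lies near 0.48 and 0.44, and TGFBR1 near -2.54 and -3.07.

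The ratio also moved with transcript length. With measured genes in 5 equal groups by transcript length over coding length, the median relative ratio in the OE-labelled line was 0.30 in the lowest group and -0.56 in the highest (3.23-fold and over), which holds TGFBR1, SMAD2 and SMAD3. Which part of a transcript was counted is not given in the sources used here. Measured against the median of its own length group, TGFBR1 stood at -1.97 and -2.54 in the OE-labelled and KO-labelled lines, SMAD2 at -0.91 and -1.60, TGFB1 at -0.86 and -1.75 and SMAD3 at -0.60 and -0.39. BMP4 stood at -0.13 and -0.73, and TGFBI at 0.28 and 0.23. By this measure 4 of 6 members were again 1.5-fold below in each line, but in the KO-labelled line SMAD3 was no longer among them and BMP4 was. These length groups were added after the data had been seen.

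The other genes of the pathway were followed in lists by role, and some counts below rest on few genes. The shares of all measured genes to set beside them are 10.5% higher and 10.5% lower in RNA, and 15.0% higher and 14.1% lower in footprints. Among genes that store or release latent TGF-beta, 9 of 13 were measured in RNA and 6 in footprints; 1 was at least 1.5-fold higher and 2 lower in RNA, and 0 and 3 in footprints, with medians of -0.09 and -0.51. The lowest in RNA was LTBP2, which encodes a relative of the latent TGF-beta binding proteins below, with 83 and 25 counts (log2 ratio -2.16, -2.88 to -1.52) and 22 and 10 footprints. LTBP3, which encodes a latent TGF-beta binding protein, stood at 0.01 in RNA (-0.13 to 0.16) and -0.80 in footprints (-1.13 to -0.48; 193 and 134 counts), and its relative LTBP4 at -0.04 and -0.74. The membrane protease gene MMP14 stood at -0.25 and -0.66. ITGB8, a subunit of a TGF-beta-activating integrin, stood at -1.54 in RNA (99 and 46 counts). Its footprints, 8 and 19, went the other way and were under the minimum. THBS1, which encodes the activator thrombospondin-1, stood at 0.68 in RNA and 0.10 in footprints (73 and 95 counts). FURIN, the protease that cleaves the TGF-beta precursor, stood at -0.09 and -0.00.

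The ligand list held 14 genes, of which 13 were in the count files. Few were measured: 4 in RNA (1 higher, 1 lower) and 3 in footprints (1 higher, 2 lower). INHBB, an activin subunit gene, had 588 and 693 RNA counts (log2 ratio -0.21) and 194 and 62 footprints (-1.91, -2.36 to -1.50), 3.77-fold lower in the KO-labelled line. INHBE, another activin subunit gene, was higher in both assays (log2 ratio 1.11 in RNA, 0.88 to 1.36; 2.83-fold in footprints, with 120 and 413 counts). GDF11 stood at -0.76 in RNA. TGFB2 had 7 and 13 RNA counts and TGFB3 had 8 and 28, so TGFB1 was the one TGF-beta isoform gene that was measured. Of 10 receptor genes, 4 were measured in RNA with 0 called and 2 in footprints, TGFBR1 lower and the activin type I receptor gene ACVR1B higher (103 and 200 counts; 0.68, 0.33 to 1.04), with its RNA at -0.05. ACVR2B, an activin type II receptor gene, had an RNA ratio of -0.34.

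SMADs and their partners gave 0 calls among 11 measured in RNA and, in footprints, 3 higher and 1 lower among 9 (all genes: 15.0% and 14.1%). The median of the list was 0.21 in RNA and -0.23 in footprints, the latter turning to 0.26 with a minimum count of 10. MAP3K7, the TAK1 kinase gene of the SMAD-independent branch, stood at -0.35 in RNA and 0.88 in footprints (60 and 134 counts; 0.43 to 1.35). TRAF6, which acts upstream of it, stood at -0.31 and 0.60, and the deubiquitinase gene USP15 at 0.50 and 0.63. CREBBP, a SMAD coactivator gene, stood at 0.27 and -0.91. USP9X, which encodes a SMAD4 deubiquitinase, stood at 0.35 and -0.30, and STRAP, an inhibitory receptor-binding protein gene, at 0.21 and -0.23.

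Of the inhibitors, 2 of 14 measured were at least 1.5-fold higher and 2 lower in RNA (all genes: 10.5% each way), and 3 and 2 of 11 in footprints (all genes: 15.0% and 14.1%). With total-count scaling 4 were higher in RNA. SMURF2, a ubiquitin ligase gene that works with SMAD7 on the receptor, stood at -1.30 in RNA (913 and 503 counts; -1.46 to -1.15) and -1.54 in footprints (195 and 81; -1.94 to -1.16). BAMBI, which encodes a pseudoreceptor, stood at -1.31 (431 and 237 counts; -1.54 to -1.08) and -1.24 (246 and 126; -1.56 to -0.93). SMURF1 stood at 0.58 and -0.00. The SMAD corepressor gene TGIF2 was higher in both assays (0.79 and 0.64), and so in footprints was PPP1R15A (0.52 in RNA, 1.05 in footprints), whose product directs a phosphatase to the receptor and to eIF2alpha. PMEPA1 stood at 0.60 in RNA and 0.18 in footprints, and the SMAD phosphatase gene PPM1A at 0.31 and 0.21. RNF111, a ligase gene for SMAD7 and SKIL that promotes signalling in place of inhibiting it, had 45 and 156 footprints (1.51, 1.03 to 2.03). Its RNA ratio was 0.04. The counts of this list include RNF111, among the 3 higher in footprints.

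Genes described as TGF-beta targets, a list that holds TGFBI itself, differed in both directions. Of 32, 29 were in the count files. In RNA 19 were measured (5 higher, 3 lower, median -0.07) and in footprints 17 (5 higher, 4 lower, median 0.11). The medians over all genes were 0.01 and 0.02. The 3 lower in RNA were TGFBI, LTBP2 (values above) and TGM2, the transglutaminase 2 gene (9372 and 5818 RNA counts; -1.13, -1.18 to -1.09; footprints -1.15). Past the threshold in footprints and not in RNA were TIMP3 (-0.07 in RNA, -0.62 in footprints) and CDKN2B (-0.35 and -0.64). Among the higher ones were IL11 (1.65 in RNA, 1.40 to 1.91; 1.99 in footprints), CDKN1A (0.59 and 1.24), KLF10 (0.66 and 0.99) and PMEPA1. ADAM19 stood at -0.28 and -0.36. Several of these genes also respond to other signals, p53 for CDKN1A among them.

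**Figure D5:**
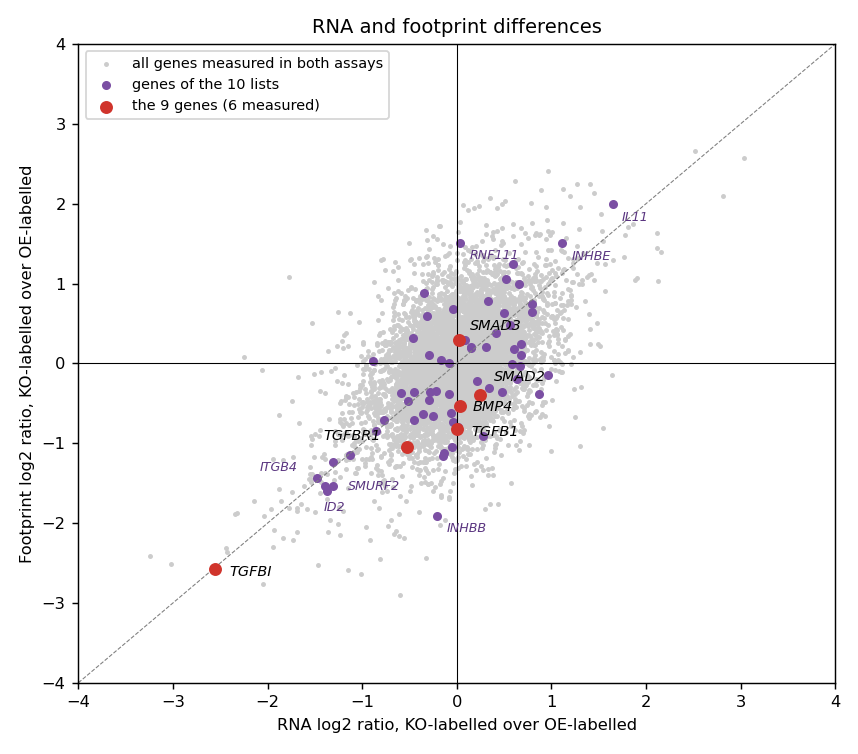
RNA log2 ratio (x axis) against footprint log2 ratio (y axis), KO-labelled over OE-labelled, for 7260 genes measured in both assays (grey; 5 lie outside the axes), 68 genes of the pathway lists (purple) and the 6 measured members (red); the dashed line marks equal ratios. TGFBI sits on the dashed line at -2.56 and -2.58, while INHBB and TGFB1 sit below it.

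In the BMP branch, 2 of 11 measured ligand, antagonist and receptor genes were at least 1.5-fold higher and 3 lower in RNA (all genes: 10.5% each way), and 0 and 2 of 5 in footprints (all genes: 15.0% and 14.1%). With total-count scaling 1 was lower in RNA. Both lower footprint genes were receptors: BMPR1A had RNA and footprint ratios of -0.14 and -1.16 (98 and 53 footprints; -1.67 to -0.67) and BMPR2 of -0.05 and -1.05 (113 and 66; -1.51 to -0.60). BMP7 stood at -0.59 (885 and 802 RNA counts) and -0.37, and BMP1, the procollagen protease gene, at -0.59 in RNA. ACVR1, a BMP type I receptor gene, stood at 0.68 in RNA with 33 and 18 footprints, NEO1 at 0.68 and 0.24, and TWSG1 at -0.32 in RNA. Of 16 SMADs and targets of this branch, 9 were measured in RNA (1 higher, 3 lower, median -0.46) and 8 in footprints (0 higher, 3 lower, median -0.33). ID2, a BMP-induced inhibitor of helix-loop-helix factors, stood at -1.37 (139 and 73 RNA counts) and -1.60 (194 and 77 footprints), the homeobox gene MSX1 at -1.42 in RNA, and TBX3 at -0.14 and -1.12. MSX2 stood at 0.63 and -0.19, and RUNX2 at -0.51 and -0.48. BAMBI is also in this list.

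Of the relatives of TGFBI and the integrins described as its receptors, 9 of 15 were measured in RNA, with 1 higher and 5 lower (median -0.77), and 8 in footprints, with 1 higher and 5 lower (median -0.71). Over all genes 10.5% were lower in RNA and 14.1% in footprints. At a 2-fold call 3 were lower in RNA and 2 in footprints. POSTN, which encodes the matrix protein periostin and is the closest relative of TGFBI, had 2 and 0 RNA counts. ITGB4 stood at -1.47 and -1.44 in RNA and footprints, ITGB5 at -1.39 and -1.54, ITGA3 at -0.85 and -0.84 and ITGA6 at -0.45 and -0.71. ITGB1 had RNA and footprint ratios of 0.67 and -0.03, ITGA5 of 0.33 and 0.78, and ITGAV of -0.22 and -0.35. ITGB2 had 15 and 41 RNA counts, under the minimum. Integrin differences were known when this list was drawn up.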

How the data were processed

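The authors deposited raw counts as whole numbers, 1 row and 1 transcript for each of 19192 genes, and 3 plates were pooled per library, per the labels. The build GRCh38 and the tools HISAT2 2.1.0, Bowtie 1.1.2 and cutadapt 1.10 are named, without role or order, per the submitters' processing notes. Not given in the sources used here are the counter, its strand setting, which part of a transcript was counted and whether linker identifiers were used; counted PCR copies would make intervals too narrow. The label of 1 library reads SW840 in its cell line field and SW480 in its source field.

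Counts were scaled within each assay by TMM (edgeR 4.0.16, R 4.3.3), which was used for scaling only. Log2 ratios had 0.5 added to each count, with exact conditional binomial 95% intervals, or Wald intervals for translational efficiency. A mean count of 50 was required, and 1.5-fold counted as a call. A model needs replicates and was not fitted. Within a line, footprints over RNA were set relative to the median gene. Lengths and coordinates are from GENCODE release 29, in which 19176 transcripts were found. All 9 members matched the transcript table, and TGFBI was looked up in the promoter table. The ratio between 2 libraries and its interval were tested on counts simulated with counting error only. Scaling, translational efficiency and other sources of error were not tested in this way.

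Named genes are the 9 members, up to 4 per list and direction past 1.5-fold in either assay by RNA count, the 2 most abundant others, and the 5 nearest to TGFBI. A gene that this rule names is not reported here. Outside this rule, the cell type markers, the neighbours of SMAD4, CXCL14, CDKN2AIPNL, CSF2, LTBP2 and POSTN were named after their values were seen. The members and lists were chosen with earlier results of these data known. As alternatives, scaling used total counts, the upper quartile or DESeq2 1.42.0 size factors, with 5 added to each count, other minimums and a 2-fold call. Work was done in Python 3.11.15 with matplotlib 3.10.9, pandas 2.3.3, scipy 1.17.1 and numpy 2.4.6.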

Additional observations from a re-analysis of the deposited data

How the results depend on the processing

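No paired analysis was possible because each line has 1 library per assay. Ratios between the lines were recomputed under other scalings, 5 added counts or subtraction of the 40 nearest genes. Of 100 such member ratios, 98 stayed inside their main interval. The others are BMP4, given above. Footprints over RNA within a line are not among these 100, and several of those values moved outside their main interval. TGFBI ranged from -2.58 to -2.44 in RNA and from -2.58 to -2.49 in footprints. Total-count scaling moved the RNA median of all genes from 0.01 to 0.13 and raised the members lower in efficiency from 2 to 4. Members lower in RNA numbered 2 with no minimum or a minimum of 10, which lets in SMAD4. Members lower in footprints numbered 5 with no minimum and 1 with a minimum of 200, which keeps 2 genes; those lower in efficiency numbered 4 and 0, and 0 at a 2-fold call. Against total counts, or with a minimum of 10, 1 member stood at least 1.5-fold above the reference in footprints over RNA in each line. With a minimum of 200, 0 stood at least 1.5-fold below it in the OE-labelled and 1 in the KO-labelled line. TGFBI in the OE-labelled line then stood at 0.17 above the median gene. In the KO-labelled line, with the same minimum, BMP4 stood at -0.86 and SMAD3 at -1.26. Of 120 recomputed list counts 40 moved by over 1.5 times, or to or from 0, and 5 of 40 list medians moved by 0.2 or more, all 5 with a minimum of 10. Members lower in footprints numbered 4 with the 40 nearest genes subtracted or a minimum of 10, and 2 at a 2-fold call. Those lower in efficiency numbered 3 with a minimum of 10. Members at least 1.5-fold below the median gene numbered 5 in the OE-labelled and 6 in the KO-labelled line with a minimum of 10. At a 2-fold call, 3 were below it in each line. Footprint counts under 50 for TGFBR2, SMAD4 and SMAD7 limit what can be said of them.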
